A study of Mus musculus with 4 samples.

Results

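The 10 genes described here mark the endothelial cells that line the liver sinusoids. They are Stab2, Clec4g, Lyve1, Pecam1, Kdr, Oit3, Fcgr2b, Gpr182, Bmp2 and Ptprb, found by name among the 21959 genes of the deposited table, and each was present once. They were measured by RNA sequencing of mouse liver in acute-on-chronic liver failure (ACLF), in which an acute insult strikes a chronically diseased liver. The baicalein group holds 2 livers and the saline group holds 2 livers. All 4 livers carry the genotype label WT and had ACLF, so no healthy liver is among the groups compared. Baicalein is a plant flavone. The labels name no strain, age, sex, dose, time of collection or way of inducing ACLF, and they do not say whether livers numbered within a group came from separate animals. The p-values thus reflect the variation among these 4 libraries alone, part of which may be technical.

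Liver sinusoids are capillaries whose endothelial cells have open pores and no continuous basement membrane. These cells clear waste macromolecules, hyaluronan and immune complexes from portal blood through scavenger receptors, and they send signals to hepatocytes, among them BMP and Wnt ligands. In chronic injury they can lose their pores and take on features of ordinary capillaries, a process called capillarisation. In whole liver RNA, fewer cells of a type and less RNA per cell cannot be told apart.

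The livers had 14766061 and 18731616 counted reads with baicalein and 17673137 and 13976440 with saline, and the members had between 155 and 2606 reads in a liver, so each member was well above the range where single reads decide a value. The 4 Y-linked genes Ddx3y, Kdm5d, Eif2s3y and Uty summed to 2 and 1 reads in the baicalein livers and to 820 and 836 reads in the saline livers. Treatment and Y-linked expression, and any difference in sex that goes with it, cannot be told apart in what follows. The 9 listed skeletal muscle genes summed to 13 reads in baicalein 1 and 36513 reads in baicalein 2, against 92992 reads in saline 1 and 20 reads in saline 2. The most abundant of them, Myh4 and Acta1, which encode a myosin heavy chain and the skeletal muscle actin, had 0 and 608 reads (Myh4) and 0 and 13913 reads (Acta1) with baicalein, against 26425 and 0 reads (Myh4) and 23802 and 4 reads (Acta1) with saline. Baicalein 2 and saline 1 thus held skeletal muscle transcripts that the other two livers almost lacked. Baicalein 2 also had the most reads of the 4 bile duct markers (2102, against 130 to 347 in the other three livers) and of the 4 smooth muscle markers (4511, against 112 to 345), most of the smooth muscle reads being of Acta2 and Myh11. Of the bile duct reads in baicalein 2, 1448 were of Krt19, a keratin gene. Sox9, a transcription factor gene on the same list, was called lower, with 64 and 125 reads with baicalein and 225 and 146 reads with saline (log2 fold change -1.16, SE 0.22, adjusted p = 0.00912 by edgeR's quasi-likelihood test). That call was not made without baicalein 1 or without saline 1 (adjusted p up to 0.0734), nor with the replicate block. Of the defining hepatocyte genes, Alb, encoding albumin, had at least 728837 reads in each liver.

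All 10 sinusoidal genes were higher in both baicalein livers than in either saline liver. Of all tested genes, 29.7% had groups apart in this direction. By edgeR's quasi-likelihood test with Benjamini-Hochberg adjustment over 12657 genes, 8 of the 10 rose, none fell, and Pecam1 and Gpr182 did not pass. The share of all tested genes called higher was 7.65%. The members were chosen with earlier results of these data known, so their count is a description. The members' log2 fold changes, baicalein over saline, ran from 0.33 to 1.06 with a median of 0.58, while the median over all tested genes was 0.01. The 10 genes together made up 647 and 662 CPM (counts scaled to a fixed library total after TMM normalisation) in the baicalein livers and 448 and 387 CPM in the saline livers.

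**Figure D1:**
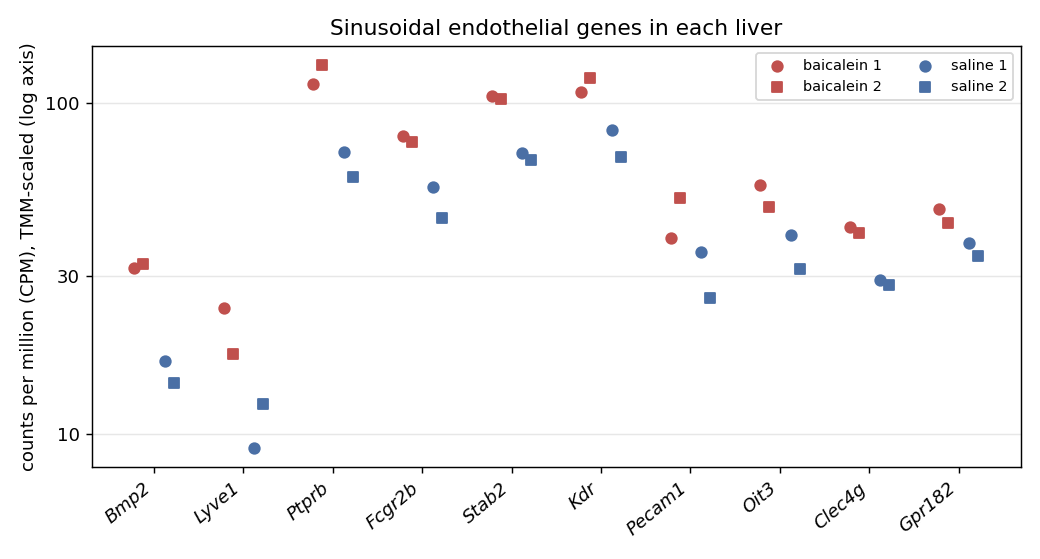
Expression of the 10 sinusoidal endothelial genes in each liver, as TMM-scaled CPM on a log axis, with baicalein livers in red to the left of saline livers in blue (circles, liver 1; squares, liver 2), ordered by fold change. Both red points lie above both blue points for every gene, and the gap is widest for Bmp2 (31.7 and 32.7 against 16.6 and 14.2).

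The first role is uptake. Stab2 (ENSMUSG00000035459, chromosome 10, 86677062 to 86843889, minus strand, positions as the deposited table gives them) encodes stabilin-2, the main scavenger receptor for hyaluronan on these cells. It had 105 and 103 CPM in the baicalein livers and 70.7 and 67.3 CPM in the saline livers. The groups lay far apart relative to the small spread within each, and the log2 fold change was 0.59 (SE 0.09, adjusted p = 0.00353, edgeR). Clec4g (ENSMUSG00000074491, chromosome 8, 3757064 to 3770651, minus strand) encodes LSECtin, a C-type lectin of sinusoidal endothelium. It had 42.2 and 40.5 CPM with baicalein and 29.1 and 28.2 CPM with saline, again with little spread (log2 fold change 0.53, SE 0.10, adjusted p = 0.00708). Fcgr2b (ENSMUSG00000026656, chromosome 1, 170786186 to 170804116, minus strand) encodes the inhibitory Fc gamma receptor, which clears immune complexes in sinusoidal endothelium and is also expressed by B cells and macrophages. It had 79.4 and 76.2 CPM with baicalein and 55.8 and 44.8 CPM with saline. Here saline 2 was the lowest liver and the baicalein livers were close together (log2 fold change 0.63, SE 0.12, adjusted p = 0.00793).

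Lyve1 (ENSMUSG00000030787, chromosome 7, 110449814 to 110462446, minus strand) encodes a hyaluronan receptor shared by sinusoidal and lymphatic endothelium and some macrophages. Its values were 24.0 and 17.4 CPM in the baicalein livers, against 9.11 and 12.3 CPM in the saline livers. It was the member with the lowest level per gene length and the only one with less RNA in saline 1 than in saline 2. Its difference (log2 fold change 0.95, SE 0.22, adjusted p = 0.0328) had the second widest SE of the list, after Pecam1. Its call was lost without baicalein 1, saline 1 or saline 2, with adjusted p up to 0.145.

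Upstream sequences of members that rose are shown because these genes were higher together. RefSeq (GRCm38.p6) gave them for 4 of the members, Stab2, Clec4g, Kdr and Fcgr2b, and none was printed for the other 6 members. Each is the 250 bases before the annotated start, read on the gene's own strand. Capitals mark matches on either strand to AGGAAG, which ETS factors bind, or CCACCC, which KLF factors bind. The motif AGATAA, which factors of the GATA family bind, was searched on both strands too.
Stab2, chr10:87007943-87008192, minus strand: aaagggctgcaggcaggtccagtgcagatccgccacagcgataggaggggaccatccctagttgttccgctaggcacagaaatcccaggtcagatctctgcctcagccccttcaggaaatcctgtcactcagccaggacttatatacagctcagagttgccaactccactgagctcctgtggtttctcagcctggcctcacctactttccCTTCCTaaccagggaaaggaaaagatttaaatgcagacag
Clec4g, chr8:3720652-3720901, minus strand: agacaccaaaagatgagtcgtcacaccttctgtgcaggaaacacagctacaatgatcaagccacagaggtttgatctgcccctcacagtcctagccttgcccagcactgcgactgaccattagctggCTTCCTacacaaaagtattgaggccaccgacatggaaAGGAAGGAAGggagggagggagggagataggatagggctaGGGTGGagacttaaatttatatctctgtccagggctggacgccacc
Fcgr2b, chr1:170976072-170976321, minus strand: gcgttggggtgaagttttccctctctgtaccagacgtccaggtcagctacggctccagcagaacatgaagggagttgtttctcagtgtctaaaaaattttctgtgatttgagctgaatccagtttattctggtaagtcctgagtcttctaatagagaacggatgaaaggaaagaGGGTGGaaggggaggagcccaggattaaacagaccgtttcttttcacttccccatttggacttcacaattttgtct
Kdr, chr5:75978456-75978705, minus strand: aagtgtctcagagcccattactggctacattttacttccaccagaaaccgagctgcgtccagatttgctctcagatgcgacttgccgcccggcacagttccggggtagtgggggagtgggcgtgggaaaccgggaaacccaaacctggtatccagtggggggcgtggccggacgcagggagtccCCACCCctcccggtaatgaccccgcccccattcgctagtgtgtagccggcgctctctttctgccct

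The Stab2 window holds 1 match to the ETS core and the Clec4g window holds 3, of which a pair overlap each other in the run of capitals. The KLF core has 1 match each in Clec4g, Fcgr2b and Kdr, and the GATA core has 0 in these windows. Among 32851 windows of the same length, 29.5% hold the ETS core, 28.1% the KLF core and 9.99% the GATA core. These matches describe letters only.

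The second role is signalling. Bmp2 (ENSMUSG00000027358, chromosome 2, 133394079 to 133404805, plus strand) encodes a ligand that sinusoidal endothelium releases and that, with BMP6, drives hepcidin expression in hepatocytes. It had 31.7 and 32.7 CPM with baicalein and 16.6 and 14.2 CPM with saline. Its lowest baicalein value was 1.91 times its highest saline value, the widest gap of the 10, and its fold change was the largest (log2 1.06, SE 0.12, adjusted p = 7.55e-04). Ptprb (ENSMUSG00000020154, chromosome 10, 116111428 to 116225440, plus strand) encodes VE-PTP, an endothelial phosphatase that restrains the TIE2 receptor. It had 114 and 130 CPM with baicalein and 71.0 and 59.7 CPM with saline (log2 fold change 0.90, SE 0.12, adjusted p = 0.00155). Kdr (ENSMUSG00000062960, chromosome 5, 76093487 to 76139118, minus strand) encodes VEGFR2, the main signalling receptor for VEGF-A. It had 108 and 119 CPM with baicalein and 83.0 and 68.8 CPM with saline (log2 fold change 0.58, SE 0.12, adjusted p = 0.0121). Ptprb and Kdr were both highest in baicalein 2 and lowest in saline 2.

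The remaining members differ in how specific they are. Oit3 (ENSMUSG00000009654, chromosome 10, 59258780 to 59277600, minus strand) encodes a secreted zona pellucida domain protein made mainly in liver. It had 56.5 and 48.4 CPM with baicalein and 39.9 and 31.4 CPM with saline (log2 fold change 0.56, SE 0.14, adjusted p = 0.0363). Gpr182 (ENSMUSG00000058396, chromosome 10, 127583145 to 127587601, minus strand) encodes an atypical chemokine receptor. It had 47.7 and 43.5 CPM with baicalein and 37.9 and 34.6 CPM with saline, the smallest difference of the list (log2 fold change 0.33, SE 0.10, adjusted p = 0.0546). In the table it overlaps Zbtb39 on the opposite strand, and the sources used here do not say whether counting used strand. Zbtb39 did not pass (log2 fold change 0.32, SE 0.14, adjusted p = 0.166).

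Pecam1 (ENSMUSG00000020717, chromosome 11, 106545043 to 106641454, minus strand) encodes CD31, an adhesion protein of all endothelium that platelets and leukocytes also carry. It had 39.1 and 51.5 CPM with baicalein and 35.4 and 25.7 CPM with saline. The groups nearly met, with baicalein 1 at 1.10 times saline 1, and the difference did not pass (log2 fold change 0.57, SE 0.22, adjusted p = 0.197). Its fitted difference was close to that of Stab2 or Kdr, but its spread was wider. Within groups it was 1.32 times higher in baicalein 2 than in baicalein 1 and 1.37 times higher in saline 1 than in saline 2, the same livers that held skeletal muscle transcripts. The part of that tissue in the Pecam1 values was not tested.

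**Figure D2:**
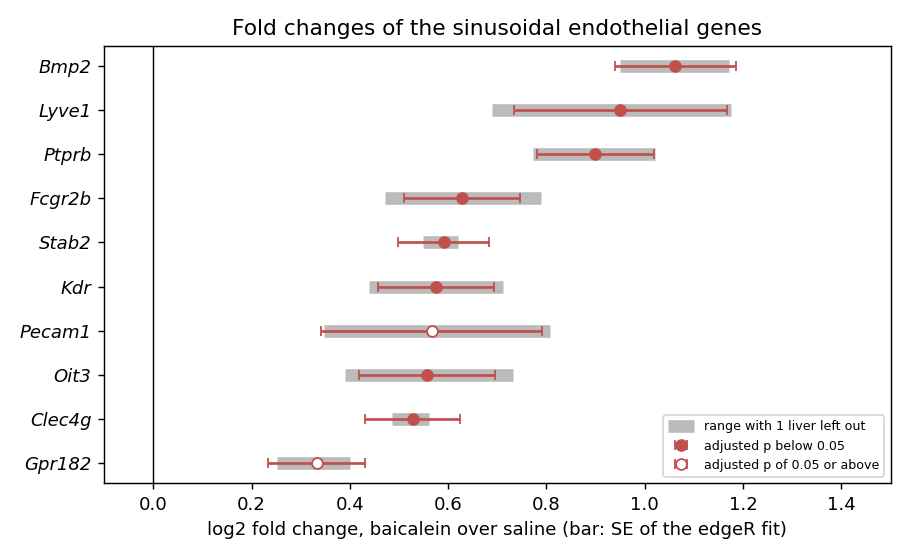
Log2 fold change of each gene, baicalein over saline, with the SE of the edgeR fit (thin bars) and the range over the fits that leave out 1 liver (grey). Filled points have an adjusted p below 0.05. The ranges of Stab2 and Clec4g are narrow, and Lyve1 (0.69 to 1.18) and Pecam1 (0.35 to 0.81) have the widest.

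The calls differed in how much they rested on single livers. Bmp2, Ptprb and Stab2 were called whichever liver was left out. Of the 8 calls, 4 were left without baicalein 1, 5 without baicalein 2, 7 without saline 1 and 3 without saline 2. Clec4g lost its call without baicalein 1 or saline 2 (adjusted p up to 0.0721), and Kdr without baicalein 2 or saline 2 (up to 0.127). Oit3 (up to 0.189) and Fcgr2b (up to 0.0835) lost theirs without baicalein 1, baicalein 2 or saline 2. Fewer genes were called over the whole table too in each of these fits, so the lost calls are not particular to the members. An exact permutation test of 2 against 2 livers cannot go below a two-sided p of 0.333, so all calls rest on the spread shared between genes.

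The livers were also compared in 2 pairs, one without and one with skeletal muscle transcripts, as values with no test, a comparison chosen after seeing the data. Between baicalein 1 and saline 2, which almost lacked these transcripts, the members' log2 ratios ran from 0.47 for Gpr182 to 1.16 for Bmp2, with a median of 0.74. Between baicalein 2 and saline 1, which both held them, the log2 ratios ran from 0.20 for Gpr182 to 0.98 for Bmp2, with a median of 0.53. The direction in both pairs follows from the groups not overlapping, so the sizes are what the pairs add. Lyve1 (0.96 and 0.93), Ptprb (0.93 and 0.87) and Pecam1 (0.60 and 0.54) had the most similar ratios in both pairs. Stab2 (0.64 and 0.54), Clec4g (0.58 and 0.48), Kdr (0.65 and 0.52) and Bmp2 (1.16 and 0.98) came next. Gpr182 (0.47 and 0.20) and Fcgr2b (0.83 and 0.45) differed more. Oit3 differed most between the pairs, with a log2 ratio of 0.85 in the first and 0.28 in the second.

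**Figure D3:**
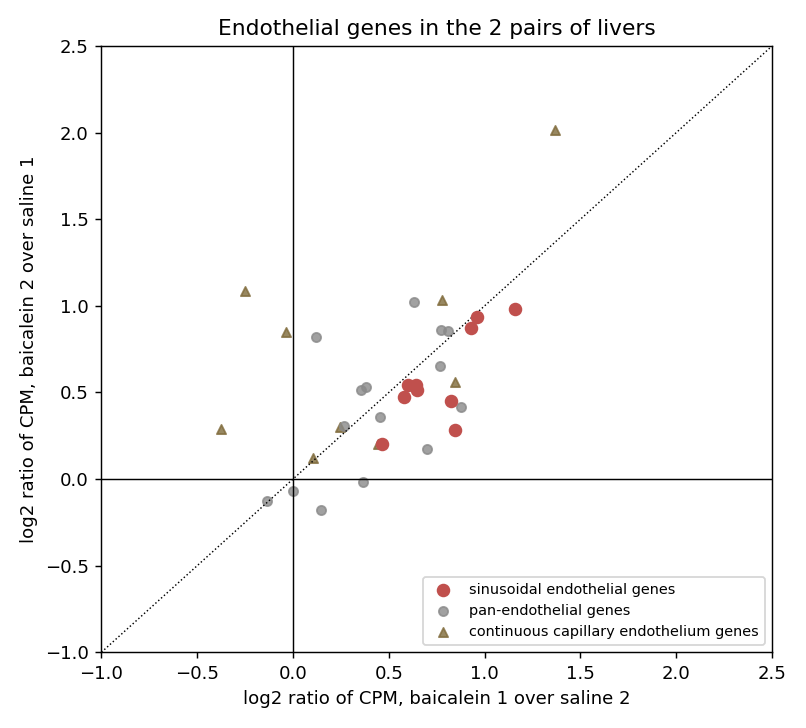
Log2 ratio of CPM between baicalein 1 and saline 2 (horizontal) and between baicalein 2 and saline 1 (vertical) for the sinusoidal genes (red circles), 15 pan-endothelial genes (grey circles) and 9 genes of continuous capillary endothelium (brown triangles), with a dotted line of equal ratios. Some capillary genes (Cd34, Cav1, Vwf) lie below 0 on the horizontal axis only.

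Per gene length (FPKM as deposited), Oit3 was the most abundant member in both groups, at 20.0 and 18.6 FPKM with baicalein and 13.8 and 11.1 FPKM with saline. Clec4g came second, at 16.9 and 17.6 FPKM with baicalein and 11.4 and 11.2 FPKM with saline. Lyve1 was the least abundant in both groups, at 8.10 and 6.38 FPKM with baicalein and 3.00 and 4.14 FPKM with saline. With baicalein the mean FPKM then fell in the order Fcgr2b, Kdr, Stab2, Gpr182, Ptprb, Bmp2, Pecam1 and Lyve1. Of the 9 neighbouring pairs in the baicalein order, 6 had overlapping livers, and Oit3 from Clec4g, Clec4g from Fcgr2b, and Gpr182 from Ptprb were apart. With saline the order after Clec4g was Gpr182, Fcgr2b, Kdr, Stab2, Pecam1, Ptprb, Bmp2 and Lyve1. In the saline order 7 of 9 neighbouring pairs overlapped, the exceptions being Clec4g from Gpr182 and Stab2 from Pecam1. Gpr182 stood sixth with baicalein and behind only Oit3 and Clec4g with saline.

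Each member was next set against 15 pan-endothelial genes (among them Cdh5, encoding VE-cadherin, and Tie1), whose counts were summed in the same liver. Bmp2 made up 9.83% and 9.88% of that sum in the baicalein livers and 6.41% and 6.22% in the saline livers. Ptprb made up 35.3% and 39.3% with baicalein and 27.4% and 26.1% with saline. Fcgr2b made up 24.6% and 23.0% with baicalein and 21.6% and 19.6% with saline. With Stab2 and Kdr, these made 5 members whose groups stayed apart, and 10.1% of all tested genes were apart and higher on this scale. Clec4g, Lyve1, Pecam1, Oit3 and Gpr182 overlapped. Gpr182 was at 14.8% and 13.2% with baicalein and at 14.6% and 15.1% with saline, the one member with a lower mean in the baicalein livers.

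**Figure D4:**
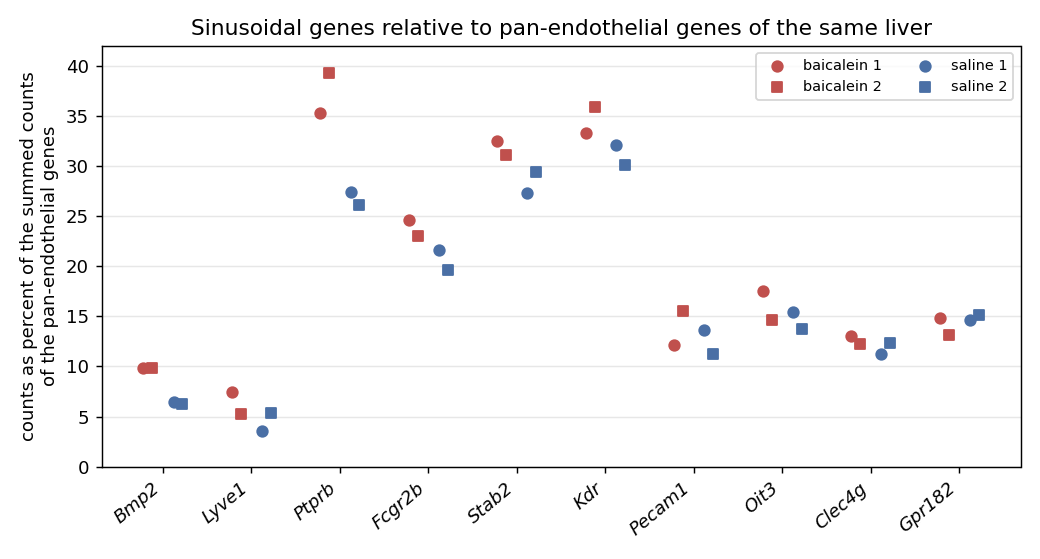
Counts of each sinusoidal gene as a percent of the summed counts of 15 pan-endothelial genes in the same liver (red, baicalein; blue, saline; circles, liver 1; squares, liver 2). Bmp2 and Ptprb stay clearly higher in the baicalein livers, while Gpr182, Clec4g, Oit3, Pecam1 and Lyve1 overlap between groups.

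Other genes of sinusoidal identity came from a list of 8 chosen with earlier results known. All were higher in both baicalein livers than in either saline liver, beside 29.7% of all tested genes. Of the 8, 2 passed and 6 did not (median log2 fold change 0.51), while 7.65% of all tested genes were called higher. Ehd3, an endocytic recycling protein gene, had 145 and 142 CPM with baicalein and 86.2 and 66.2 CPM with saline (log2 fold change 0.91, SE 0.13, adjusted p = 0.00311). Leaving out baicalein 1 ended this call (adjusted p = 0.0605). Plxnc1, a semaphorin receptor gene, also rose (log2 fold change 0.98, SE 0.13). Stab1, encoding the other stabilin, had 61.8 and 62.5 CPM with baicalein and 53.7 and 48.6 CPM with saline and did not pass (adjusted p = 0.0780). Of the 15 pan-endothelial genes, 4 rose (Robo4, Clec14a, Tek and Eng) and 11 did not pass, with a median log2 fold change of 0.44. Robo4, an endothelial guidance receptor gene, had 19.2 and 19.9 CPM with baicalein and 11.0 and 10.9 CPM with saline (log2 fold change 0.83, SE 0.13), and Cdh5 did not pass (log2 fold change 0.41, SE 0.20, adjusted p = 0.261). Clec14a was not called without baicalein 1, and Eng with any 1 of the 4 livers left out, with adjusted p up to 0.0791 and 0.185. Without baicalein 1, baicalein 2 or saline 2, 2 of the 15 genes were called.

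Of 12 endothelial transcription factor genes, 2 rose, beside 7.65% of all tested genes, and 10 did not pass (median log2 fold change 0.51). Maf, encoding a factor that promotes sinusoidal identity, had 51.2 and 51.3 CPM with baicalein and 31.6 and 27.8 CPM with saline (log2 fold change 0.79, SE 0.10, adjusted p = 0.00120). Ets1, of the ETS family, rose too (log2 fold change 0.67, SE 0.10). Both calls held with each liver left out. Gata4, encoding the factor required for the sinusoidal form of endothelium in mouse liver, had 23.9 and 23.8 CPM with baicalein and 24.5 and 24.1 CPM with saline (log2 fold change -0.03, SE 0.11, adjusted p = 0.912).

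The 9 genes listed for continuous capillary endothelium, the state linked to capillarisation, gave 1 call and a median log2 fold change of 0.70. Of these 9 genes, 3 had groups apart and higher with baicalein, beside 29.7% of all tested genes. The call and the median were both those of Plvap, so they do not describe the list as a whole. Plvap encodes the protein of pore diaphragms. It had 50.8 and 45.5 CPM with baicalein and 30.9 and 28.2 CPM with saline (log2 fold change 0.70, SE 0.10). Cd34, an adhesion protein gene of capillaries and progenitor cells, had 2.20 and 15.8 CPM with baicalein and 8.76 and 2.26 CPM with saline (adjusted p = 0.836). Cav1, encoding caveolin, had 3.44 and 23.3 CPM with baicalein and 11.0 and 4.08 CPM with saline (adjusted p = 0.786). Both were high in the livers with skeletal muscle transcripts and low in the others, in either group, so the livers differed by more within a group than between groups. The part of that tissue in these values was not tested.

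Genes of the sinusoidal zones were described next. Of 6 periportal and arterial endothelial genes, 3 rose, beside 7.65% of all tested genes, and 3 did not pass (median log2 fold change 0.87). Adam23, an adhesion protein gene, had 28.7 and 28.7 CPM with baicalein and 12.2 and 10.8 CPM with saline (log2 fold change 1.32, SE 0.12), and Ntn4 (0.97, SE 0.17) and Ltbp4 (0.76, SE 0.14) also rose. Without baicalein 2, Adam23 was the 1 still called of these 3. Of 7 pericentral endothelial genes, Wnt2, encoding a ligand of hepatocyte zonation, alone rose, at 5.98 and 7.98 CPM with baicalein and 3.70 and 2.92 CPM with saline (log2 fold change 1.07, SE 0.27, adjusted p = 0.0287). It was not called with any 1 liver left out (adjusted p up to 0.211). Of 4 tested lymphatic genes, Reln, which stellate cells also express, rose (1.71, SE 0.14), and the other three did not pass.

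Partners of the signalling members moved unevenly. In the VEGF group, with Kdr as receptor, 2 of 8 tested genes rose, 1 fell and 5 did not pass. Over the whole table, 7.65% of tested genes were called higher and 7.9% lower. Flt4, encoding VEGFR3, had 48.3 and 46.2 CPM with baicalein and 34.9 and 35.2 CPM with saline (log2 fold change 0.43, SE 0.09, adjusted p = 0.0128). Its call was lost without baicalein 1, saline 1 or saline 2 (up to 0.108). The co-receptors went opposite ways, Nrp2 rising (log2 fold change 1.14, SE 0.17) and Nrp1 falling (log2 fold change -0.75, SE 0.10). Nrp1 had 55.4 and 55.6 CPM with baicalein and 88.4 and 98.5 CPM with saline. The Nrp1 call held with each liver left out, and that of Nrp2 was lost without saline 1 or saline 2 (up to 0.0709). Vegfa, the ligand, did not pass (log2 fold change 0.29, SE 0.14, adjusted p = 0.227).

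Tek, encoding TIE2, on which VE-PTP acts, had 23.7 and 26.7 CPM with baicalein and 17.0 and 13.9 CPM with saline (log2 fold change 0.70, SE 0.14, adjusted p = 0.0110). Tek, which is also on the pan-endothelial list, was the 1 gene called of 4 tested in the angiopoietin and TIE2 group, and not without baicalein 2 or saline 2 (up to 0.0994).

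Of 22 BMP ligands, receptors and targets, 4 rose, 3 fell and 15 did not pass (median log2 fold change 0.23), while 7.9% of all tested genes were called lower. Bmp6, the partner ligand of Bmp2, had 7.43 and 6.34 CPM with baicalein and 6.23 and 4.08 CPM with saline (log2 fold change 0.41, SE 0.26, adjusted p = 0.348). Hamp, encoding hepcidin, had 278 and 218 CPM with baicalein and 242 and 131 CPM with saline, so the groups overlapped (log2 fold change 0.41, SE 0.42, adjusted p = 0.628). Hamp2, its mouse duplicate, had 58 and 67 reads with baicalein and 2 and 2 reads with saline (log2 fold change 4.73, SE 0.51, adjusted p = 5.01e-04). Reads shared between these similar copies could be split in counting, so the value of each is uncertain. Id2 (log2 fold change -0.56, SE 0.10) and Atoh8 (-0.79, SE 0.17), which BMP signalling induces, and Hjv (-0.57, SE 0.13), encoding the BMP co-receptor hemojuvelin, fell. Bmp5 rose (1.74, SE 0.36), at no more than 3.99 CPM in any liver. Smad5 (0.39, SE 0.09) and Eng (0.41, SE 0.09) rose too, and Eng is also on the pan-endothelial list. Of the 7 calls, that of Hamp2 held with each liver left out, and the others were lost in at least 2 of the 4 such fits. Id1 and Smad7, further targets, did not pass (log2 fold changes -0.48, SE 0.35, and -0.12, SE 0.15). Smad6 of the same list did not pass either (log2 fold change 0.33, SE 0.20), though it was higher in both baicalein livers than in either saline liver. Of the 22 genes, 10 had groups apart and higher with baicalein and 5 had groups apart and lower. The list thus did not move in 1 direction.

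For the hyaluronan receptors, 4 other genes of hyaluronan handling were tested. Beside them, 7.65% of all tested genes were called higher. Cd44, a hyaluronan receptor of leukocytes and other cells, rose (log2 fold change 1.16, SE 0.15), while Hyal1 and Hyal2, which encode hyaluronidases, and Cemip2 did not pass. Beside Fcgr2b, 1 of 5 other Fc receptor genes rose, the activating receptor gene Fcgr3, with 15.3 and 15.0 CPM with baicalein and 9.52 and 8.68 CPM with saline (log2 fold change 0.73, SE 0.14). Its call was lost without baicalein 1, baicalein 2 or saline 2 (up to 0.0832). Of 7 atypical chemokine receptor and ligand genes, Cxcl13, a B cell chemokine, alone rose (log2 fold change 1.48, SE 0.40, adjusted p = 0.0376). It was not called with any 1 liver left out (up to 0.200).

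**Figure D5:**
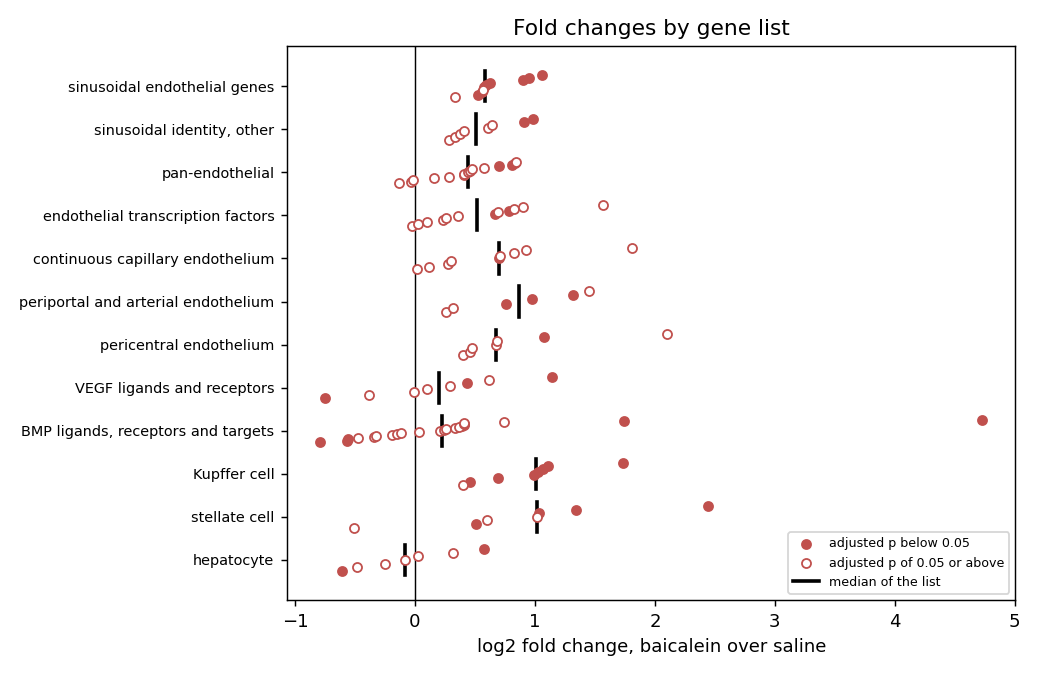
Log2 fold changes, baicalein over saline, of the tested genes of each list (filled, adjusted p below 0.05; open, not passed), with the list median as a black bar. The sinusoidal genes lie between 0.33 and 1.06, Kupffer cell genes have a median of 1.01, stellate cell genes of 1.02 and hepatocyte genes of -0.08.

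Most Kupffer cell markers and 4 of 7 stellate cell markers were also called higher. Of all tested genes, 7.65% were called higher and 7.9% lower. Of 8 Kupffer cell markers, 7 rose and Cd68 did not pass, with a median log2 fold change of 1.01 and sums of 855 and 734 CPM with baicalein and 493 and 420 CPM with saline. Those of smallest p were Marco (log2 fold change 1.73, SE 0.14), a scavenger receptor gene, then Cd5l (1.07, SE 0.13), Timd4 (0.99, SE 0.14) and Vsig4 (1.11, SE 0.15), and these 4 were the ones still called without baicalein 1. Of 7 stellate cell markers, 4 rose (Lrat, Dcn, Colec11 and Pdgfrb) and 3 did not pass, with a median of 1.02 and sums of 313 and 403 CPM with baicalein and 283 and 125 CPM with saline. Without saline 1, 2 of them were called. Des, a stellate marker that muscle also expresses, had 91 and 2033 reads with baicalein and 2565 and 36 reads with saline, following the skeletal muscle genes. Without Des the stellate sums were 307 and 302 CPM with baicalein and 132 and 123 CPM with saline, and the median was 1.03. The 4 B cell markers, which bear on Fcgr2b, summed to 10.4 and 9.93 CPM with baicalein and 5.06 and 5.25 CPM with saline, and none passed. Their most abundant genes, Cd79a and Cd79b, encode parts of the B cell receptor and had log2 fold changes of 0.61 (SE 0.33) and 1.28 (SE 0.37). The 5 platelet and megakaryocyte markers, which bear on Pecam1, summed to 5.85 and 4.39 CPM with baicalein and 6.17 and 5.76 CPM with saline. Of 3 tested, Ppbp, a platelet chemokine gene, was called lower, with 5 and 5 reads with baicalein and 24 and 19 reads with saline (log2 fold change -2.22, SE 0.61, adjusted p = 0.0401). That call was not made with any 1 liver left out (up to 0.353) nor with DESeq2, limma-voom, the replicate block or other filters on low counts. Gp1bb was at 0 in every liver. Of 7 hepatocyte genes, Alb rose, Apob fell and 5 did not pass, with a median of -0.08. Their sums were 116191 and 98131 CPM with baicalein and 85465 and 81464 CPM with saline. Most of each sum was Alb, at 87778.2 and 74260.5 CPM with baicalein and 55863.2 and 53156.5 CPM with saline. The sums thus do not describe the list as a whole. Alb and Ahsg were higher in both baicalein livers than in either saline liver. Apoa1, Fgb and Apob were lower in both, and Ttr and Hnf4a overlapped. Leaving out either saline liver ended the Alb call (adjusted p up to 0.457), and leaving out any 1 liver ended that of Apob (up to 0.252). The part of these cells in the values of Lyve1, Fcgr2b and Pecam1 was not tested.

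The 5 tested genes whose values over the 4 livers lay nearest to the members' median profile, among 9318 with a mean of at least 5 CPM, were Lix1l, Tnxb, Pik3cd, Rac2 and Cd300lg. Likeness was the root mean square distance of the log2 CPM, each centred on its own mean, and ran from 0.0127 for Lix1l to 0.0282 for Cd300lg. Among the members themselves, Fcgr2b lay nearest to that profile (0.0299) and Lyve1 farthest (0.323). With 4 livers, many genes can share a profile. Lix1l, the nearest, had 12.5 and 12.4 CPM with baicalein and 8.70 and 7.37 CPM with saline. Cd300lg, the farthest of the 5 and an endothelial surface receptor gene, had 31.9 and 29.9 CPM with baicalein and 22.5 and 18.8 CPM with saline. Whether the 5 genes share a cell type was not tested.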

How the data were processed

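The members and the gene lists were chosen with earlier results of these data known. Total RNA was made into libraries with a SMARTer kit, per the labels' protocols. The authors deposited 1 table with a whole-number read count and an FPKM value per gene and liver, per the file headers. The submitters' processing notes give the build as mm10, and no source used here names the aligner or counter. The table's positions matched GENCODE M21 (mm10) for 0 of the 10 members, though the span was the same for 10. The build of these positions is thus not known. They were printed as the table gives them and not mixed with GRCm38 coordinates. Column names match sample titles.

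After filterByExpr, 12657 genes entered TMM scaling and the two-sided quasi-likelihood test of edgeR 4.0.16 under R 4.3.3 (robust fit, baicalein over saline, Benjamini-Hochberg adjustment, threshold 0.05). The SE is the absolute log2 fold change divided by the root of the F statistic. CPM use TMM-scaled totals. The chi-square per degree of freedom between livers of a group was 18.7 for baicalein and 23.4 for saline, above sampling noise. It includes the skeletal muscle genes, and it cannot show whether the livers came from separate animals. Each liver was counted once. Alternatives were DESeq2 1.42.0, its size factors within edgeR, limma-voom (limma 3.58.1), other filters on low counts, a replicate block and leaving out each liver. All members were named. From each other list the rule took the called genes of smallest p, up to 4, or the 2 most abundant genes where none was called. Further genes, among them Hjv, Smad5 and uncalled ones, were named for their role, call or direction after values were seen. Tf of the hepatocyte list was not matched by name.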

Additional observations from a re-analysis of the deposited data

How the results depend on the processing

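The count of 8 members called was the same with DESeq2, its size factors in edgeR, no filter on low counts and a mean CPM of at least 1, and was 6 with limma-voom, where Lyve1 and Oit3 were lost (adjusted p = 0.0690 and 0.0817). It ran from 3 to 7 with 1 liver left out, where genes called higher over the whole table ran from 521 to 665 and genes called lower from 535 to 663, against 968 and 1000 with all livers. Those fits also have fewer degrees of freedom. With limma-voom 632 genes were called higher.

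The labels share numbers 1 and 2 between groups, and the main fit did not take the numbers as pairs. Same-numbered livers deviated in opposite directions from their group means (correlation -0.78 over 12657 genes). With 2 livers per group this reflects 1 difference within each group, and skeletal muscle transcripts were in opposite-numbered livers (baicalein 2 and saline 1). The correlation thus cannot show whether the numbers denote pairs. With the replicate block 6 members were called, Lyve1 and Kdr being lost (adjusted p = 0.159 and 0.0587), beside 531 genes higher and 601 lower. With crossed pairs, added after seeing the data, 10 members were called beside 1809 genes higher and 1689 lower. Total reads put every member at 155 reads or more in each liver, so low counts kept no member from being tested. The rarer partners Pgf, Angpt1, Pdpn and the Has genes did not pass the filter on low counts and were untested. Whether depth or low expression accounts for that was not tested.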
